A study of Homo sapiens with 6 samples.

Results

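C15orf48, NDUFA4 and NDUFA4L2 form a small family of mitochondrial proteins, and all 3 members were found by symbol among the 28675 genes of the count table. C15orf48 was chosen by its lower counts in LARP6 libraries in the comparison described here, and NDUFA4 and NDUFA4L2 as its paralogs, so the members' levels and changes are given as a description, without a test. NDUFA4 encodes a small membrane subunit of cytochrome c oxidase (complex IV), the last enzyme of the respiratory chain, although it was first assigned to complex I. C15orf48, also called NMES1 or MOCCI, encodes a paralog that is induced by NF-kB signalling and takes the place of NDUFA4 in complex IV during inflammation. NDUFA4L2 encodes a paralog induced by hypoxia-inducible factor (HIF) when oxygen is low. The C15orf48 transcript also carries the precursor of the microRNA miR-147b in its last exon, and miR-147b is known to repress NDUFA4, so 1 transcript can lower NDUFA4 and supply its replacement.

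The libraries were messenger RNA libraries from MDA-MB-231, a cell line from a triple-negative breast cancer. There were 3 libraries of cells with LARP6 overexpression and 3 of no-load control cells, with no treatment or time given. LARP6 belongs to the La-related proteins, which bind RNA. The study asked which RNAs LARP6 binds and regulates in these cells. Total counts were 29409101 to 31648120 in LARP6 libraries and 29723790 to 33387050 in control libraries. LARP6 averaged 2108 CPM (read counts scaled to library size, with TMM factors) in LARP6 libraries and 42.7 CPM in control libraries. The line's markers VIM and CD44 were at 3112 CPM or more and 702 CPM or more in every library, and the hormone receptor genes ESR1 and PGR were at 0.221 CPM or less. ERBB2, the third receptor gene checked for a triple-negative line, was expressed, at 54.2 to 59.3 CPM over the 6 libraries. Of 6 leukocyte markers 5 were in the table, and their summed level was 2.95 to 3.28 CPM in LARP6 libraries and 2.75 to 3.32 CPM in control libraries, most of it from CSF1R.

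The sequences that tie C15orf48 to NDUFA4 are the mature miR-147b and its match in the NDUFA4 transcript, shown because the microRNA lies in one member and its seed match in another. The microRNA is from RefSeq (GRCh38.p14, chr15:45433098-45433118, plus strand), with its seed, bases 2 to 8, in capitals. The site is from the GENCODE v29 transcript (GRCh38, chr7:10933566-10933588, minus strand), with the 7 bases that pair with the seed in capitals.
hsa-miR-147b-3p: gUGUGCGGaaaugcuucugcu
NDUFA4 site: agccacatCCGCACAattttcca
The precursor lies at chr15:45433050-45433129, in exon 4 of 4 of the transcript C15orf48-201 and downstream of its coding sequence. The match to its seed starts 56 bases after the NDUFA4 stop codon, and it is the single match in the 1685 bases that follow the coding sequence. C15orf48 and NDUFA4L2 had 0 matches after their coding sequences. Among protein-coding genes, 2.37% held the 7 letters CCGCACA there, and 0 of 16 other complex IV subunit genes did. The microRNA itself was not analysed here, because the tables hold gene-level counts from messenger RNA libraries.

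The start regions of the 2 expressed members also differ in composition, and they are shown to set the gene that was lower in LARP6 libraries beside its paralog. Each is the 250 bases before the RefSeq start (GRCh38.p14), with matches to TATATAA and GCGTG on either strand in capitals. The GENCODE v29 genes start farther upstream, at 45430529 for C15orf48 and 10940256 for NDUFA4, so part of each window lies inside the gene as annotated there.
C15orf48 (chr15:45430360-45430609, plus strand): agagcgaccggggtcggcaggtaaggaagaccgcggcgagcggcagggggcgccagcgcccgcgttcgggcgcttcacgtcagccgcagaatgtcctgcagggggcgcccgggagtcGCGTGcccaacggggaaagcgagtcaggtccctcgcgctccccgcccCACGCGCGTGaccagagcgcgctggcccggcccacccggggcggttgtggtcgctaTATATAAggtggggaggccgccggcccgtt
NDUFA4 (chr7:10940154-10940403, minus strand): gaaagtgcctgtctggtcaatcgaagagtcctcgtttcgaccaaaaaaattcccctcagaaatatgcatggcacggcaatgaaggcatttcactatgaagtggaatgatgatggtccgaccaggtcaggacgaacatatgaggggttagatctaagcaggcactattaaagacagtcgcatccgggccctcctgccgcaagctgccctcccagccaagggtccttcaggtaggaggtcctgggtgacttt
GC content was 73.6% for C15orf48, with 36 CpG dinucleotides, and 51.6% for NDUFA4, with 9, beside a median of 58.0% over 35116 start regions of this length. The TATA-box match stood at position -30 of C15orf48, NDUFA4 had none, and 2.42% of all start regions held this motif. The letters GCGTG, a form of the core of a HIF site, had 3 matches in C15orf48, of which 2 adjoin. NDUFA4 had 0 and NDUFA4L2 had 2, and 32.2% of all start regions held these letters. Other forms of the core were not searched. The NF-kB consensus, searched by name, had 0 matches in these windows and was found in 5.21% of all start regions. The CCAAT box also had 0 matches and was found in 32.0%.

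C15orf48 was lower in every LARP6 library than in any control library. Its level was 97.9, 106 and 105 CPM in LARP6 libraries 1, 2 and 3, against 137, 144 and 144 CPM in control libraries 1, 2 and 3. These values come from 2922, 3221 and 3335 counts in the LARP6 libraries and 4178, 4261 and 4731 counts in the control libraries. The groups did not overlap, and library 1 was the lowest in each group. The means were 103 ± 4.41 CPM in LARP6 libraries and 142 ± 4.13 CPM in control libraries (SD, n = 3 each). The log2 fold change was -0.46 ± 0.03 (SE from the edgeR fit), a change of -27.4%. In this comparison 11.7% of the 16226 genes tested were lower in LARP6 libraries with no overlap (22.3% in either direction), and 2.15% had a lower log2 fold change than C15orf48. Among the 11072 tested genes with a mean of at least 5 CPM, 22 had a lower log2 fold change. In bulk RNA, fewer cells that express a gene and less of its RNA per cell cannot be told apart.

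**Figure D1:**
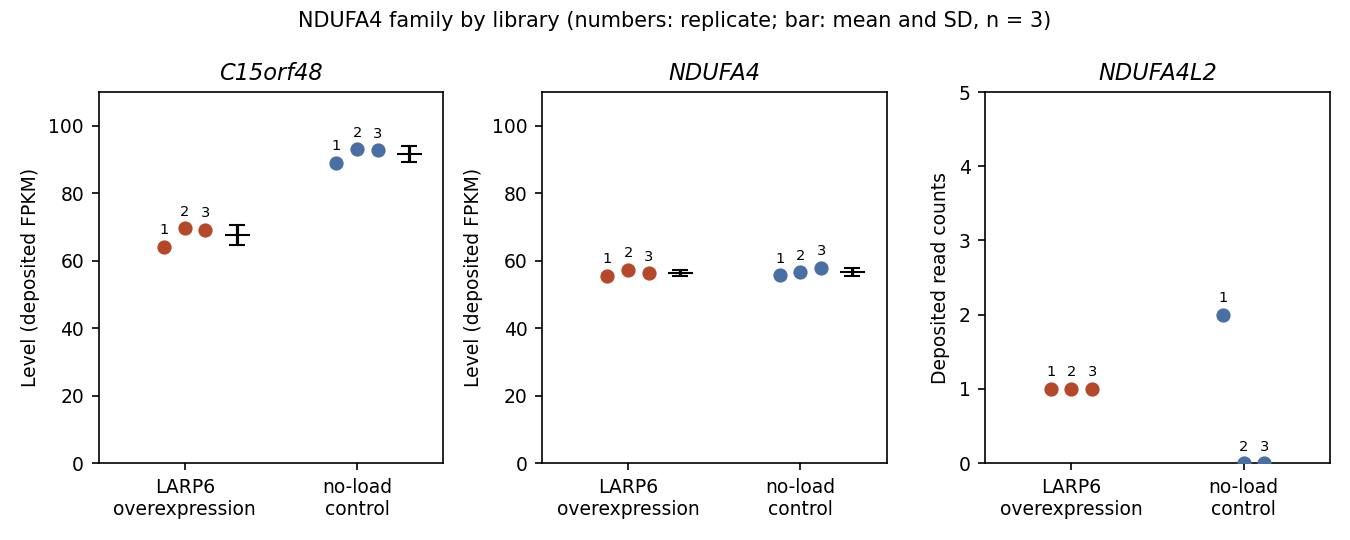
Levels of C15orf48 and NDUFA4 in deposited FPKM and the read counts of NDUFA4L2, 1 point per library with its replicate number, for 3 LARP6 and 3 control libraries; bars give the mean and SD. C15orf48 sits between 64.1 and 69.6 FPKM in LARP6 libraries and between 89.0 and 93.1 FPKM in control libraries, while the NDUFA4 points of the groups overlap.

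NDUFA4 was nearly level between the groups. Its level was 217, 223 and 219 CPM in LARP6 libraries 1, 2 and 3, against 219, 224 and 230 CPM in control libraries 1, 2 and 3. The groups overlapped, and the highest value was that of control library 3. The means were 219.6 ± 3.23 CPM in LARP6 libraries and 224 ± 5.30 CPM in control libraries (SD, n = 3 each), a log2 fold change of -0.03 ± 0.03 (SE), or -2.16%. The difference was about as large as the spread of log2 CPM within groups, which had a pooled SD of 0.03. With offsets for GC content and length it was larger, at -0.076 ± 0.027 (log2, SE). On deposited FPKM (fragments per kilobase of gene length, scaled to depth) the means were 56.4 ± 0.908 in LARP6 libraries and 56.7 ± 1.09 in control libraries (SD, n = 3 each).

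NDUFA4L2 was at the limit of detection. It had 1 count in each LARP6 library, against 2, 0 and 0 counts in control libraries 1, 2 and 3. Both groups were under the floor of 3 counts, which is 0.0946 to 0.101 CPM in LARP6 libraries and 0.0914 to 0.102 CPM in control libraries, so no fold is given. Its sums were 3 counts in LARP6 libraries and 2 in control libraries. The gene did not pass the low-count filter and is the only member outside the fit.

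The position of each member and the rows around it bear on how its reads were counted. C15orf48 (ENSG00000166920.13) lies on the plus strand of chromosome 15 from 45430529 to 45448761 in GENCODE v29 (GRCh38), with 4 annotated transcripts, of which 3 are coding. A lncRNA on the opposite strand, RP11-519G16.5 in the table, shares 163 exon bases with it and had 12, 10 and 8 counts in LARP6 libraries 1, 2 and 3 and 13, 13 and 17 counts in control libraries 1, 2 and 3. RP11-519G16.3, on the same strand as C15orf48, shares 213 exon bases and had 14 counts in the LARP6 libraries and 14 in the control libraries. Whether the counting used strand is not given in the sources used here, and these counts are small beside those of C15orf48. NDUFA4 (ENSG00000189043.10) lies on the minus strand of chromosome 7 from 10931951 to 10940256. Its processed pseudogene NDUFA4P1, with which it could share reads, had 8 counts over the LARP6 libraries and 9 over the control libraries. NDUFA4L2 (ENSG00000185633.10) lies on the minus strand of chromosome 12 from 57234903 to 57240715, where 33 exon bases overlap SHMT2, a gene of mitochondrial folate metabolism.

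The nearest expressed coding genes on each side of the members, some of them far away, did not pass the test. SPATA5L1, 9.1 kb away on the same strand, was at 12.4 CPM in LARP6 libraries and 12.2 CPM in control libraries, with 0.03 ± 0.09 as log2 fold change and SE (edgeR adjusted p = 0.910). The zinc transporter gene SLC30A4, 30.8 kb away, was at 0.13 ± 0.12 (log2, SE; edgeR adjusted p = 0.599). Farther out, DUOX1, an NADPH oxidase gene 265 kb away, was at 0.19 ± 0.24 (log2, SE). BLOC1S6, a gene of lysosome-related organelle formation 138 kb away, was at 0.09 ± 0.07 (log2, SE), and neither passed. Beside NDUFA4, the chromatin reader gene PHF14, 33.1 kb away, was at 0.06 ± 0.06 (log2, SE). TMEM106B, a lysosomal membrane protein gene 1271 kb away, was at 0.07 ± 0.05 (log2, SE), and neither passed. On the other side ICA1, 2669 kb away, was at 0.08 ± 0.10 and GLCCI1, 2838 kb away, at 0.15 ± 0.10, and neither passed. Beside NDUFA4L2, SHMT2 was at -0.09 ± 0.03 (log2, SE, edgeR adjusted p = 0.0588), NXPH4 at -0.07 ± 0.24, RP11-123K3.4 at -0.10 ± 0.12 and R3HDM2 at 0.07 ± 0.08, and none passed.

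C15orf48 was the more abundant transcript of the family per length in every library, by a smaller margin in LARP6 libraries. The ratio of C15orf48 to NDUFA4 in deposited FPKM was 1.15, 1.21 and 1.23 in LARP6 libraries 1, 2 and 3, against 1.60, 1.65 and 1.60 in control libraries 1, 2 and 3. The ratio was above 1 in each library, and the groups did not overlap. C15orf48 made up 54.5% ± 0.812 of the FPKM of the pair in LARP6 libraries and 61.8% ± 0.405 in control libraries (SD, n = 3 each). The summed FPKM of the pair was 124 ± 3.84 in LARP6 libraries and 148 ± 3.15 in control libraries (SD, n = 3 each), so the pair together was lower by about the amount that C15orf48 was. These are transcript levels, and what share of complex IV holds either protein was not measured.

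**Figure D2:**
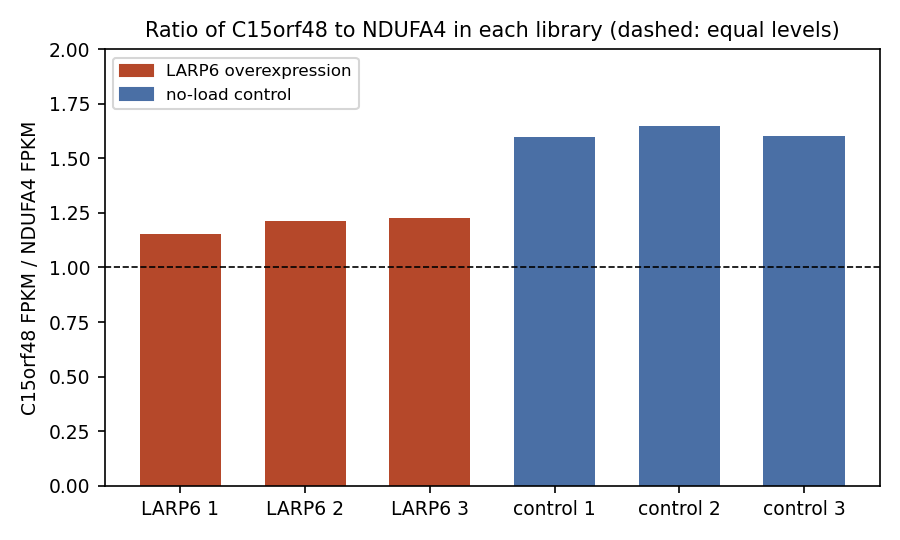
Ratio of C15orf48 to NDUFA4 in deposited FPKM, 1 bar per library, 3 LARP6 and 3 control; the dashed line marks equal levels. All 6 bars stand above 1, at 1.15 to 1.23 in LARP6 libraries and 1.60 to 1.65 in control libraries.

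The level of the ratio rests on the lengths used for FPKM. Set against the table's totals, the deposited FPKM correspond to about 1534 bases for C15orf48 and 3917 bases for NDUFA4, longer than the annotated transcripts of 875 and 2130 bases. With CPM over those transcript lengths the ratio was 1.14 ± 0.0371 in LARP6 libraries and 1.54 ± 0.0266 in control libraries (SD, n = 3 each). The difference of mean log2 ratios was -0.43 on FPKM and -0.43 on CPM per transcript length.

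Among complex IV genes, the pair held middle ranks on deposited FPKM. These ranks rest on the lengths behind the FPKM, which differed widely between subunits. COX4I1 and COX8A averaged 304 and 380 CPM in LARP6 libraries, but 56.2 and 685 FPKM. With 16 other subunit genes in the FPKM table, C15orf48 ranked 11 of 19 in LARP6 libraries and 11 of 19 in control libraries, and NDUFA4 ranked 13 of 19 in LARP6 libraries and 14 of 19 in control libraries. The gene above C15orf48 was COX5B, at 104 ± 1.96 FPKM in LARP6 libraries and 108 ± 3.20 FPKM in control libraries (SD, n = 3 each). The gene below it was COX6C, at 62.0 ± 1.37 FPKM in LARP6 libraries and 61.5 ± 0.469 FPKM in control libraries. The FPKM values of C15orf48 and COX6C did not overlap within either group. In CPM the order was reversed, at 189 for COX6C and 103 for C15orf48 in LARP6 libraries and 191 and 142 in control libraries. On FPKM, NDUFA4 and COX4I1, a nuclear-encoded regulatory subunit of the enzyme, overlapped in each group. In CPM COX4I1 was higher, at 304 against 220 in LARP6 libraries and 319 against 224 in control libraries. COX4I1 was at 55.1 to 58.4 FPKM in LARP6 libraries and 57.04 to 59.31 FPKM in control libraries. The mitochondrially encoded core subunits MT-CO1, MT-CO2 and MT-CO3 averaged 7819, 11120 and 10559 FPKM in LARP6 libraries and 8144, 11849 and 10873 FPKM in control libraries. Of the tissue-specific alternative subunits, COX7A1 had 1 count in all and COX6B2 was at 0.0657 CPM or less. COX7B2 averaged 1.39 CPM in LARP6 libraries and 1.33 CPM in control libraries. COX4I2, COX6A2 and COX8C were not found by symbol in the count table.

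The other complex IV subunit genes had small differences between the groups. Of 14 tested, 4 fell, 0 rose and 10 were not called. That is 28.6% called, against 6.03% of all genes tested, of which 3.6% were lower and 2.43% higher in LARP6 libraries. Those shares are 395 genes higher and 584 lower; the split was 687 higher and 303 lower when scaling used library size only, while GC and length offsets gave 164 higher and 407 lower. The median log2 fold change was -0.07, beside 0.00 over all genes tested, and 12 of 14 were below 0. It was nearer 0 without control library 3 (-0.04). It was -0.05 with limma on FPKM plus 1, where the median of all genes was 0.02. When scaling used library size only it was also -0.05, where the median of all genes was 0.03. COX7B, a small nuclear-encoded subunit, fell to 121 ± 5.76 CPM in LARP6 libraries, against 132 ± 2.52 CPM in control libraries (SD, n = 3 each), or in log2 units -0.13 ± 0.03 (SE; adjusted p = 0.00636 in edgeR). COX8A, another small subunit, changed by -0.12 ± 0.03 (log2, SE, edgeR adjusted p = 0.00184) and COX6B1, which faces the intermembrane space, by -0.09 ± 0.03 (edgeR adjusted p = 0.0493). MT-CO2, the subunit that receives electrons from cytochrome c, had 8459, 8764 and 8424 CPM in LARP6 libraries 1, 2 and 3, against 9142, 8991 and 9667 CPM in control libraries 1, 2 and 3 (log2 -0.12 ± 0.03, SE; adjusted p = 0.000735 in edgeR), and the groups did not overlap. COX4I1 (-0.07 ± 0.03), MT-CO1 (-0.08 ± 0.04) and MT-CO3 (-0.07 ± 0.02) did not pass.

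**Figure D3:**
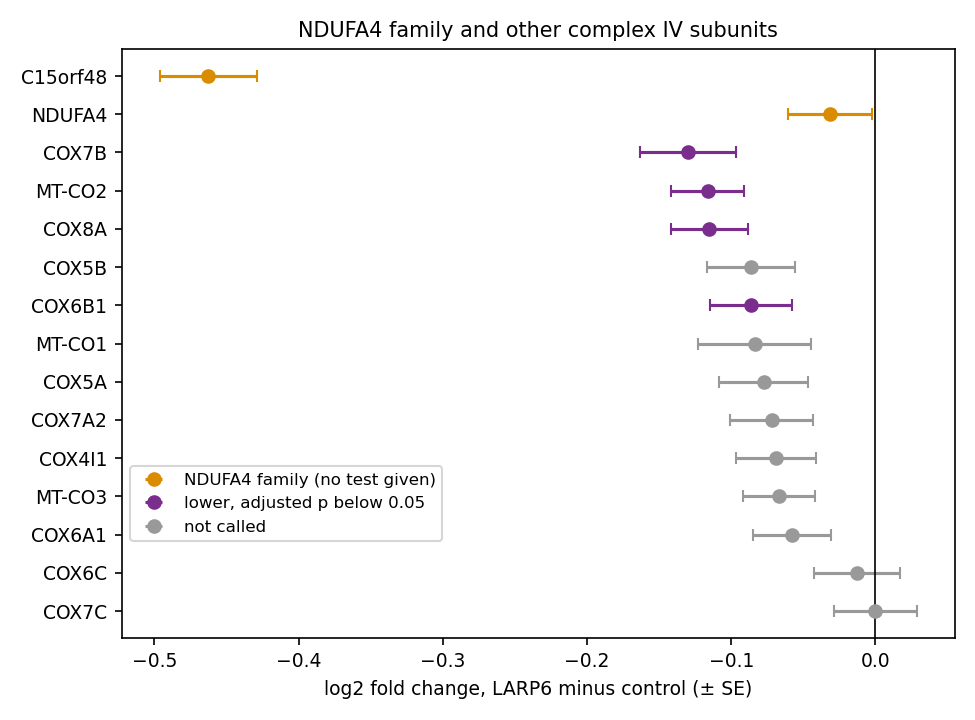
Log2 fold change, LARP6 minus control, with its SE, for C15orf48, NDUFA4 and 13 other complex IV subunit genes; COX7B2, at 1.39 CPM in LARP6 libraries and 1.33 CPM in control libraries, is left out for its wide error. C15orf48 stands at -0.46, and the other subunits lie between -0.13 and 0.00.

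The calls of COX6B1, COX7B and COX8A depended on single libraries or on corrections. That of MT-CO2 was lost only in the limma fits on FPKM, and COX8A kept its call with each library left out. COX6B1 lost its call without LARP6 library 1 (adjusted p = 0.319), LARP6 library 2 (0.122), control library 2 (0.158) or control library 3 (0.176), and COX7B without LARP6 library 3 (0.101). COX6B1 was also lost with RLE scaling (0.0540), library size only (0.186), no low-count filter (0.0689) and DESeq2 (0.0526), and offsets for GC content and length ended the calls of COX8A (0.473) and COX6B1 (0.649).

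Assembly factors of complex IV, which insert its metals, hemes and core subunits, were called at about the share of all genes. Of 31 tested, 2 fell, 0 rose and 29 were not called, 6.45% called against 6.03% of all genes tested. The median log2 fold change was 0.00. It was 0.02 when scaling used library size only, where the median of all genes was 0.03. HIGD2A, which takes part in building complex IV and supercomplexes, fell to 145 ± 1.63 CPM in LARP6 libraries, against 155 ± 3.76 CPM in control libraries (SD, n = 3 each; edgeR adjusted p = 0.0330). COX7A2L, a factor that joins complex IV to complex III, changed by -0.11 ± 0.03 (log2, SE, edgeR adjusted p = 0.0357). The call of HIGD2A was lost with library size only (adjusted p = 0.138), with GC and length offsets (0.447), and without LARP6 library 1 (0.0734), 2 (0.145) or 3 (0.0765) or control library 1 (0.0794) or 3 (0.180). The call of COX7A2L was lost with library size only (adjusted p = 0.135), with DESeq2 (0.0671), and without LARP6 library 1 (0.172) or 2 (0.185) or control library 2 (0.114) or 3 (0.218).

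The NDUFA genes that encode complex I subunits share their name with NDUFA4 and not its enzyme. Of 11 tested, edgeR called 0, with 4 at an unadjusted p below 0.05, and DESeq2 called 0. Over all 16226 genes tested, edgeR called 6.03%, and 3085 had an unadjusted p below 0.05. Their median log2 fold change was -0.04 and 10 of 11 were below 0. When scaling used library size only it was -0.02 with 8 of 11 below 0, where the median of all genes was 0.03. Limma on FPKM plus 1 or plus 0.1 also gave -0.02, where the median of all genes was 0.02. Without control library 3 the list median was -0.04 with 7 of 11 below 0. The smallest p-values were those of NDUFA13 at -0.08 ± 0.03 and NDUFA3 at -0.10 ± 0.04 (log2, SE, edgeR adjusted p = 0.103 and 0.126).

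Other HIF targets, the class to which NDUFA4L2 belongs, were listed as 23 genes, all of which passed the low-count filter. DDIT4, an inhibitor of mTORC1 signalling, fell to 174 ± 7.39 CPM in LARP6 libraries, against 199 ± 5.35 CPM in control libraries (SD, n = 3 each), or in log2 units -0.19 ± 0.03 (SE; adjusted p = 1.32e-06 in edgeR). The glycolytic enzyme gene PGK1 changed by -0.10 ± 0.03 (edgeR adjusted p = 0.00755), and its call was lost without LARP6 library 2 (0.0678) or control library 2 (0.126). The other 21 were not called, so 8.70% were called against 6.03% of all genes tested. The median log2 fold change was -0.01. It was 0.02 when scaling used library size only, where the median of all genes was 0.03. CA9, a HIF target used as a hypoxia marker, was at 0.458 ± 0.0789 CPM in LARP6 libraries and 0.531 ± 0.0990 CPM in control libraries (SD, n = 3 each).

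The NF-kB target list had more calls than the others. C15orf48 is a gene of this class but is not in the list. Earlier results of these data, among them the fall of C15orf48, were known when the list was written. Of 26 tested, 14 fell, 1 rose and 11 were not called, 57.7% called against 6.03% of all genes tested (3.6% lower and 2.43% higher), with a median log2 fold change of -0.20, beside 0.00 over all genes tested. The genes with the smallest p-values were LCN2, CXCL1, ZC3H12A, IL6, CXCL8 and SOD2. SOD2, the mitochondrial superoxide dismutase, fell to 339 ± 5.33 CPM in LARP6 libraries, against 396 ± 18.1 CPM in control libraries (SD, n = 3 each), or in log2 units -0.22 ± 0.03 (SE; adjusted p = 1.26e-10 in edgeR). The change of C15orf48, -0.46, lay between those of IL6 (-0.55 ± 0.04) and SOD2. LCN2, a siderophore-binding protein gene, was at -1.52 ± 0.07, the chemokine genes CXCL1 and CXCL8 at -1.07 ± 0.07 and -0.66 ± 0.06, and ZC3H12A, an RNase gene, at -0.69 ± 0.05 (log2, SE). BIRC3, an inhibitor of apoptosis, was the gene that rose, at 0.20 ± 0.04, and its adjusted p was 0.276 with GC and length offsets.

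**Figure D4:**
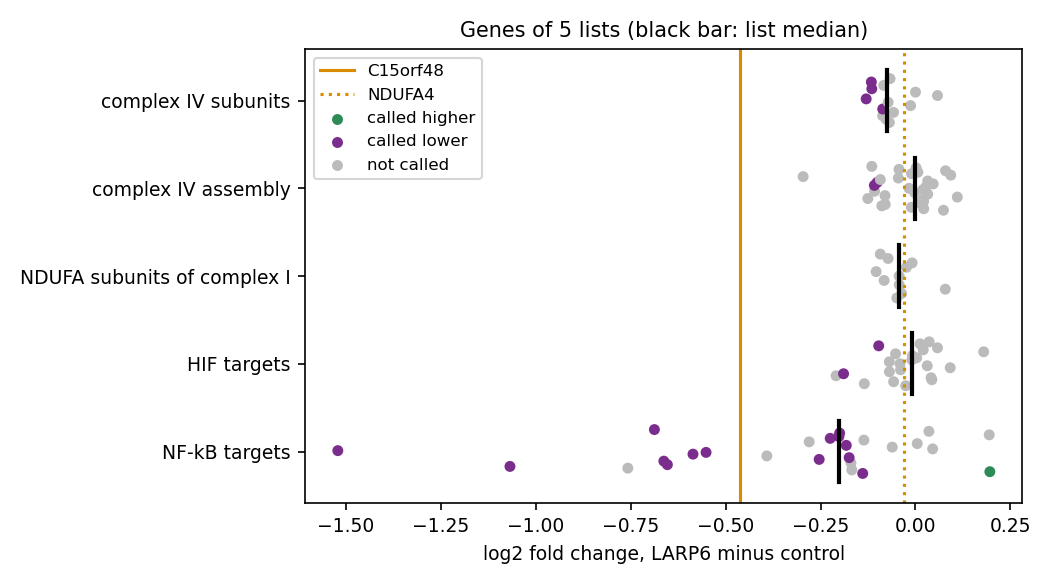
Log2 fold change, LARP6 minus control, of each tested gene in the 5 lists, with black bars at the list medians; the lines mark C15orf48 (-0.46) and NDUFA4 (-0.03). The medians run from -0.20 for NF-kB targets to 0.00 for complex IV assembly factors.

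Genes whose levels followed C15orf48 across the 6 libraries were found by correlation. Likeness was Pearson's correlation of log2 CPM over the 6 libraries, among 10575 other protein-coding genes with a mean of at least 5 CPM. Because the libraries are 2 groups of 3, this measure mostly follows the group difference, and 529 genes (5.0%) had a correlation above 0.9. The 6 highest were IFITM3, an interferon-induced membrane protein gene (0.999), PMEPA1, a gene of TGF-beta signalling (0.997), the cytokine gene IL32 (0.996), the prostaglandin E synthase gene PTGES (0.995), the serum amyloid readthrough SAA2-SAA4 (0.995) and the autophagy regulator gene AMBRA1 (0.995). IL32 had 28.4, 31.6 and 30.5 CPM in LARP6 libraries 1, 2 and 3 and 43.2, 48.2 and 45.3 CPM in control libraries 1, 2 and 3. PTGES averaged 339 ± 12.3 CPM in LARP6 libraries and 426 ± 13.4 CPM in control libraries (SD, n = 3 each). The log2 fold changes of these 6 ran from -0.63 ± 0.06 for SAA2-SAA4 to -0.18 ± 0.03 for IFITM3 and -0.18 ± 0.06 for AMBRA1 (SE), beside -0.46 for C15orf48.

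For NDUFA4, the 6 highest were DAD1, a subunit of the oligosaccharyltransferase (0.993), the ubiquitin-conjugating enzyme gene UBE2R2 (0.990), the kinase gene RPS6KA2 (0.990), the membrane glycoprotein gene MPZL1 (0.988), the proteasome subunit gene PSMB2 (0.979) and the mitochondrial ribosomal protein gene MRPL52 (0.978). Their log2 fold changes ran from -0.09 ± 0.07 for RPS6KA2 to -0.03 ± 0.03 for MPZL1 (SE). DAD1 averaged 200.5 ± 4.74 CPM in LARP6 libraries and 208 ± 6.40 CPM in control libraries (SD, n = 3 each). Of the genes compared, 113 had a correlation above 0.9 with NDUFA4. Between C15orf48 and NDUFA4 it was 0.663.

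Genes with the miR-147b seed match were looked at as a group because C15orf48 is the host transcript, a set chosen after values were seen. Of 351 tested genes with CCGCACA after the coding sequence, 8 rose and 16 fell, 6.84% called against 6.86% of the 12627 tested genes with such sequence. Their median log2 fold change was -0.01, beside 0.00 for all 12627, and 44.2% were above 0, beside 51.4%. NDUFA4, which holds the site shown above, was at -0.03 ± 0.03 (SE).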

How the data were processed

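The authors deposited read counts per gene and FPKM values per gene, 1 column per library. Total RNA was made into stranded mRNA libraries and sequenced as paired reads, per the labels' protocols. The submitters' processing notes name HISAT2, DESeq2 and GRCh38, with no role or version. How reads were counted, with which annotation and whether by strand, is not given in the sources used here. FPKM in the deposited table are scaled for gene length and depth by the authors.

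Counts were tested with edgeR 4.0.16 in R 4.3.3 (expression filter, TMM, robust quasi-likelihood test, no covariate), with Benjamini-Hochberg adjusted p below 0.05 over 16226 genes, and the scripts were tested on simulated counts. LARP6 libraries were compared with control libraries. CPM used TMM-scaled library sizes. Alternatives used DESeq2 1.42.0, limma 3.58.1 on log2 of FPKM plus 1 or 0.1 (kept at 0.5 FPKM in 3 libraries), other scalings and filters, a replicate block, GC and length offsets and each library left out. GENCODE v29 and RefSeq gave positions and sequences. The labels do not say whether replicates are separate cultures. The p-values therefore rest on library-to-library spread alone, possibly technical. Floors cover counting error only.

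The members and the 5 lists (19 complex IV subunits, 31 assembly factors, 12 NDUFA genes, 23 HIF targets, 27 NF-kB targets) were chosen with earlier results of these data known. Named genes are up to 6 called members of a list with the smallest p, or 2 where none was called, a fixed set of complex IV genes, the 6 most alike genes, the 2 nearest expressed coding genes on each side and NDUFA4 pseudogenes. CA9 was added after its values were seen.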

Additional observations from a re-analysis of the deposited data

How the results depend on the processing

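C15orf48 kept its direction and moved by less than the replicate SD under all 16 alternatives, from -0.49 to -0.43, and so did its ratio to NDUFA4 under all 7. NDUFA4 kept its direction in all 16. With GC and length offsets it was -0.076 ± 0.027 (SE), a move of more than the replicate SD, and it was between -0.05 and -0.01 otherwise. For NDUFA4L2 no alternative gave a fold, since both groups were under the floor. Against 979 genes called (395 higher, 584 lower), the count was 574 with DESeq2, 571 with GC and length offsets (164 higher, 407 lower), 443 at an adjusted p below 0.01, 106 and 105 with limma on FPKM plus 1 and plus 0.1, and 3 with no FPKM filter. With library size only it was 990 (687 higher, 303 lower). Leaving out 1 library gave 456 to 1040 genes: LARP6 library 1 gave 459, LARP6 library 2 gave 456 and control library 2 gave 650. The 4 complex IV subunits became 8 under a replicate block, 2 under GC and length offsets, 3 to 6 with 1 library left out, and 0 in the 3 limma fits on FPKM. The 2 assembly factors became 1 with library size only (higher), 1 with DESeq2, 0 at an adjusted p below 0.01 and 0 in the 3 limma fits. With 1 library left out the count was 0 to 1, and the 1 without control library 3 was higher. The 0 NDUFA genes became 1 with the replicate block or GC and length offsets, and 0 to 1 with 1 library left out. The 2 HIF targets became 3 with library size only (1 higher, 2 lower) and 3 with GC and length offsets (0 higher, 3 lower). They became 0 in the 3 limma fits and 1 to 2 with 1 library left out. The 15 NF-kB targets became 7 and 7 with limma on FPKM plus 1 and plus 0.1, and 2 with no filter. The cause was not tested. Same-numbered libraries correlated by 0.03, 0.01 and 0.05 in their deviations, so the numbers were not taken as pairs, and not every library correlated best with its own number. The replicate block gave 1345 genes. The few counts of NDUFA4L2, under the floor in each library, set the limit on comparing it.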
